A study of Mus musculus with 6 samples.

Results

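The RNA of 8 Toll-like receptors (Tlr1, Tlr2, Tlr3, Tlr4, Tlr6, Tlr7, Tlr9 and Tlr13), of the co-receptor Cd14 and of the adaptor Myd88 was followed in the cortex of microglia-depleted and control mice. These 10 genes were taken by symbol from a table of 23366 genes, and all 10 were found. Cortical RNA came from 3 microglia-depleted mice at day 10 after depletion, named A4 to A6, and from their control littermates, A1 to A3, all on a C57BL/6 background and each sequenced as a single library. The depleted mice were CX3CR1-CreERT2+/- iDTR+/-, where iDTR is a diphtheria toxin receptor that a cell makes only after Cre has acted in it, and they received tamoxifen and then diphtheria toxin. The control mice were CX3CR1-CreERT2+/- without iDTR and also received tamoxifen, and it is not stated whether they received the toxin. The Cre is driven by the promoter of Cx3cr1, which is active in microglia and also in monocytes and other macrophages, and the study waited between tamoxifen and toxin for blood monocytes to be renewed. Which cells made the receptor was not measured here. The mice were adults, described as matched for age and sex, and exact ages are not given in the sources used here. RNA of 12 microglia genes was at a similar summed level in both groups on day 10, as given below, so the depleted samples were not free of microglial RNA. The study describes the microglia present at day 10 as repopulated after the depletion and in an activated state.

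Toll-like receptors are membrane proteins of the innate immune system that bind conserved microbial molecules, and also molecules released by damaged cells. Tlr1, Tlr2, Tlr4 and Tlr6 sit mainly at the cell surface, where Tlr2 pairs with Tlr1 or Tlr6 to bind lipoproteins and Tlr4 binds lipopolysaccharide that Cd14 hands over. Tlr3, Tlr7, Tlr9 and Tlr13 sit in endosomes and bind nucleic acids. All of these receptors except Tlr3 signal through Myd88, and the pathway ends in NF-kappa B and interferon regulatory factors. In the brain, microglia are the main cells with most of these receptors, while Tlr3 is also made by astrocytes and other cells.

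Promoter stretches of 4 of the genes are shown, and no result below depends on them. Tlr13 and Tlr6 are the genes of the 10 whose groups did not overlap. Tlr2 had its highest value in a single depleted mouse, and Myd88 is the shared adaptor. Over all genes tested below, the groups did not overlap in 17.6%, and Tlr6 was too low for the main test. Sequences are from RefSeq on GRCm38.p6, run 5′ to 3′ on the strand of the gene, and hold only bases before a RefSeq start and outside annotated exons. The stretches of Tlr6 and Myd88 lie inside the gene spans given below, not upstream of them. Capitals mark matches, on either strand, to 3 motifs: kappa B-like (GGG, any 5 bases, then CC), ISRE-like (GAAA, any 2 bases, then GAAA, the core of an interferon-stimulated response element) and PU.1-like (GAGGAA).
Tlr2, chr3:83841768-83841858, minus strand: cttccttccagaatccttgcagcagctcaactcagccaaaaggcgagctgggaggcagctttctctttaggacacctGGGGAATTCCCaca
Tlr6, chr5:64959167-64959416, minus strand: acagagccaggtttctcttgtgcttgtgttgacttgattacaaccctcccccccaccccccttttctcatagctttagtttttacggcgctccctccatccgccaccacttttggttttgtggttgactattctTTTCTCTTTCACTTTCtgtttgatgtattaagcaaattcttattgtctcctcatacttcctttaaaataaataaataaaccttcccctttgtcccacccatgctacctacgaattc
Tlr13, chrX:106143025-106143203, plus strand: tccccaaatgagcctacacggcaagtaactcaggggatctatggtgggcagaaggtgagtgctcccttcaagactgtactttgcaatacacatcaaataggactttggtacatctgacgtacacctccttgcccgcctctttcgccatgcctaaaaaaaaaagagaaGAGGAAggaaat
Myd88, chr9:119340042-119340268, minus strand: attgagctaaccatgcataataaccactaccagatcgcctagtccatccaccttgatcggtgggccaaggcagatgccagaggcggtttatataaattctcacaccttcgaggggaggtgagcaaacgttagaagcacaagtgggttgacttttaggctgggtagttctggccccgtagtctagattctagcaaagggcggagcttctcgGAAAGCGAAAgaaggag
The table of promoters held 9 windows for 7 of the 10 genes, each from 250 bases before to 50 bases after a start, and none for Tlr4, Tlr7 and Cd14. The kappa B-like letters were found in windows of Tlr2, Tlr3 and Tlr6, and in 50.8% of all 32851 windows. The ISRE-like letters were found in windows of Tlr6 and Myd88, with overlapping matches in Tlr6, and in 3.44% of all windows. GAGGAA was found in windows of Tlr1, Tlr9 and Tlr13, and in 28.3% of all windows. A match describes the letters and is not a binding site. Tlr6 has a second annotated start, whose window held a kappa B-like match and no ISRE-like match.

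The values are FPKM (fragments scaled to transcript length and library size), which the authors also scaled between libraries with TMM factors. The spacing of the low values in a library shows what a single fragment is worth, and it gave about 14.7 M, 20.5 M and 18.3 M fragments (M, mega) for the control mice in order, 13.8 M for A4, 3.57 M for A5 and 11.3 M for A6. The deepest library was thus 5.75 times the shallowest, A5. The study gives the same read coverage for all samples, and the estimate for A5 lies far below it. In A5, 79.1% of the low values lay within 0.15 of a whole number of fragments at this depth and 6.76% within 0.15 of a half-number, where the odd counts of a library 2 times as deep would lie. In A5 the 10 genes together rested on about 121 fragments, and 7 of the 10 values rested on fewer than 10 fragments, against 0 to 2 such values in each of the other 5 mice. Of the libraries, A4 stood apart in interferon-stimulated genes: 8 such genes summed to 354.3 FPKM there, against 60.0 (A5), 57.6 (A6) and a control range of 16.6 to 27.4.

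**Figure D1:**
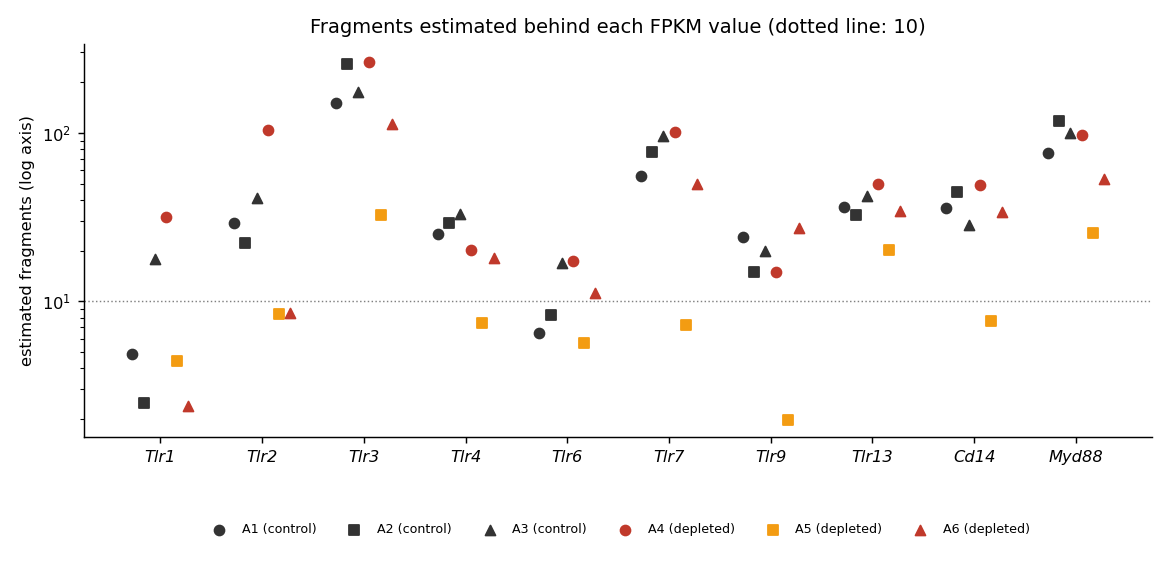
Estimated number of fragments (log axis) behind the FPKM of each of the 10 genes, with 1 symbol per mouse (black for control, red for A4 and A6, orange for A5). The A5 values lie lowest or near lowest for most genes, from about 2 fragments for Tlr9 to 32 for Tlr3, while Tlr3 in A4 rests on about 264.

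In control cortex the 10 genes were all low. Myd88 was the highest at 2.78 ± 0.155 FPKM (SD, n = 3), followed by Tlr3 at 2.44 ± 0.341 FPKM (SD, n = 3), and the ranges of these 2 genes over the control mice overlapped. Cd14 at 1.25 ± 0.283 FPKM (SD, n = 3) and Tlr7 at 1.09 ± 0.217 FPKM (SD, n = 3) formed the next pair, below Tlr3 and above Tlr2 without overlap. Tlr2, Tlr13, Tlr4 and Tlr9 came next, at means of 0.587, 0.523, 0.403 and 0.330 FPKM. Tlr6 and Tlr1 were the lowest, at means of 0.160 and 0.157 FPKM. From Tlr2 down, every gene overlapped its neighbour in this order. Since FPKM is per length, levels can be set side by side between genes. In bulk tissue, a level set by fewer cells of a type cannot be told apart from less RNA per cell. As markers of brain tissue, 8 neuronal genes summed to between 2776 and 3248 FPKM in the 6 mice, but they do not tell cortex from other regions.

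Between the groups, none of the 10 genes was called. Genes averaging 0.5 FPKM or more in these mice were tested, which 6 of the 10 were (Tlr2, Tlr3, Tlr7, Tlr13, Cd14 and Myd88). Of these, 0 passed the adjusted threshold of 0.1 in limma, and 0 passed an unadjusted 0.05 in this fit. Over all 14385 genes tested, 0.0278% were called at that threshold and 10.5% passed the unadjusted one (4.79% with the higher level in depleted mice). The same fit called 0 of the 8 interferon-stimulated genes summed above. All 8 were higher on average, with a median log2 fold change of 1.95, although Rsad2 met the minimum mean only through the depleted mice. A gene that was not called is therefore not shown to be unchanged. The study, with a count test at the same threshold, reported far more genes. The adjusted p-values of the 6 genes ran from 0.492 to 0.988 in limma. On the log2(FPKM + 1) scale, which understates changes of low genes, their standard errors ran from 0.15 to 0.34. Their median log2 fold change was 0.22, against -0.0085 for all genes tested, and it was -0.0014 without A4.

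All 10 genes had a higher mean log2 value in the depleted group, where 48% of all genes tested did. This direction held for Tlr1, Tlr6, Tlr13, Cd14 and Myd88 with any 1 mouse left out, and it changed for the other 5, Tlr2, Tlr3, Tlr4, Tlr7 and Tlr9. In each of the 10 genes the highest of the 6 mice was a depleted one: A4 in 5 genes, A5 in 4 and A6 in 1. Over all genes tested, the highest mouse was a depleted one in 61.1% and was A4 in 26.9%. The summed FPKM of the 10 genes was 9.82 (A1), 9.51 (A2) and 9.85 (A3), and 17.1 (A4), 11.2 (A5) and 10.1 (A6). The sum thus differed little among the control mice and mainly in A4 among the depleted mice.

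**Figure D2:**
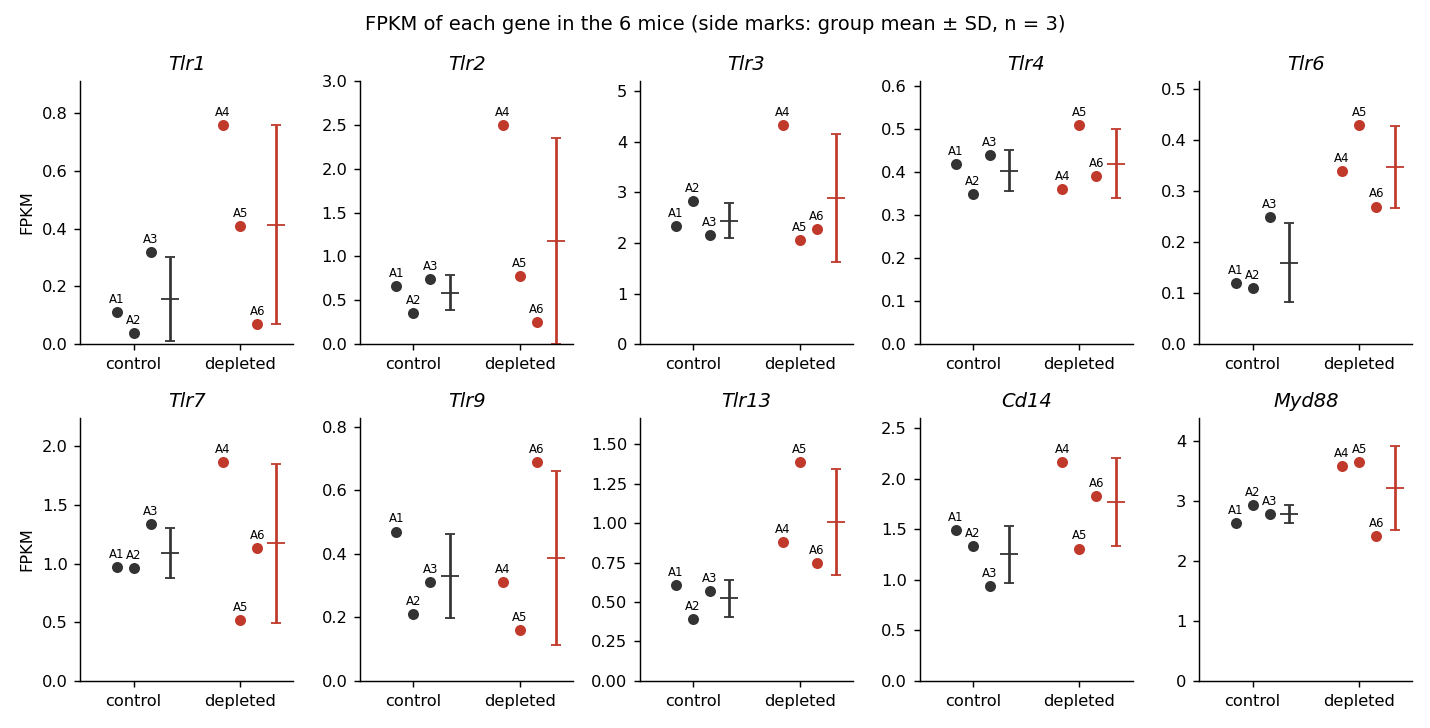
FPKM (linear axes that start at 0) of each of the 10 genes in the 3 control mice (black) and the 3 depleted mice (red), with the group mean ± SD as side marks. The groups are apart in Tlr6 and Tlr13 and overlap in the other 8 panels, and A4 lies far above the other mice in Tlr2, at 2.50 FPKM.

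The receptors of the cell surface were at low levels. Tlr2 (chromosome 3, 83836272 to 83841767 on GRCm38, whose upstream stretch with the kappa B-like letters is shown above) was at 0.66 FPKM (A1), 0.36 (A2) and 0.74 (A3) against 2.50 (A4), 0.78 (A5) and 0.25 (A6). The depleted group held both the highest and the lowest mouse, so the groups overlapped. For Tlr2 the log2 fold change was 0.33 (standard error 0.34, adjusted p = 0.755 in limma, 95% interval from -0.45 to 1.11), and it was -0.081 without A4. The value in A4 rested on about 104 fragments and the 95% Poisson interval of its FPKM, which covers counting error only, ran from 2.04 to 3.03, above the value of every other mouse. In A5 and A6 Tlr2 rested on about 8 and 9 fragments.

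Tlr1 and Tlr6, the partners of Tlr2, lie beside each other on chromosome 5 (64924679 to 64933563 and 64952031 to 64960097 on GRCm38). They share sequence: 11.5% of the 75-base windows of the Tlr1 transcript are also in Tlr6, so the split of such reads between them is uncertain. Neither reached the minimum mean for testing. Tlr6 was at 0.12 FPKM (A1), 0.11 (A2) and 0.25 (A3) against 0.34 (A4), 0.43 (A5) and 0.27 (A6). The groups did not overlap, with A6 only just above A3 (p = 0.1 by exact permutation, two-sided, which is as low as 3 mice against 3 can go). Of the genes under the minimum mean, 2.69% were apart in this way with the higher level in depleted mice. The difference was 0.22 on the log2(FPKM + 1) scale, from 0.17 to 0.27 with 1 mouse left out, and 0.81 with a pseudocount of 0.1. These values rested on about 6 to 17 fragments per mouse, and the Poisson interval of A5, from 0.152 to 0.958 FPKM, covered the level of A3. With the filter dropped, Tlr6 joined Tlr13 as a tested gene whose groups were apart, as 15.1% of genes then were, and it had an adjusted p of 0.501 in limma (unadjusted p = 0.0343). Tlr1 was at 0.11 FPKM (A1), 0.04 (A2) and 0.32 (A3) against 0.76 (A4), 0.41 (A5) and 0.07 (A6). Its groups overlapped, A6 being below A1 (exact permutation p = 0.3).

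Tlr4, the lipopolysaccharide receptor (chromosome 4, 66827584 to 66930284), was close to the same level in both groups. It was at 0.42 FPKM (A1), 0.35 (A2) and 0.44 (A3) against 0.36 (A4), 0.51 (A5) and 0.39 (A6). The groups overlapped, with a difference of 0.016 on the log2 scale that ran from -0.029 to 0.047 with 1 mouse left out (exact permutation p = 0.8). A4, the mouse highest in Tlr2, was below the control mean in Tlr4. Cd14, which hands lipopolysaccharide to Tlr4 and assists Tlr2, was at 1.49 FPKM (A1), 1.33 (A2) and 0.94 (A3) against 2.17 (A4), 1.31 (A5) and 1.83 (A6). A4 and A6 were above every control mouse, and A5, which rested on about 8 fragments, was within their range. For Cd14 the log2 fold change was 0.29 (standard error 0.18, adjusted p = 0.585 in limma, 95% interval from -0.11 to 0.70). Without A5 the groups no longer overlapped, as in 32.7% of all genes tested in the same way, and the unadjusted p in limma was 0.0430 (adjusted p = 0.336), where 14.3% of genes passed an unadjusted 0.05.

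Of the receptors of the endosome, none was called in limma and Tlr13 came closest. Tlr13 (chromosome X, 106143204 to 106160493), which binds bacterial ribosomal RNA and has no human counterpart, was at 0.61 FPKM (A1), 0.39 (A2) and 0.57 (A3) against 0.88 (A4), 1.39 (A5) and 0.75 (A6). The lowest depleted mouse, A6, lay above the highest control, A1 (p = 0.1 by exact permutation, its floor), and Tlr13 was the only 1 of the 6 genes tested for which this held, where 17.6% of all genes tested had groups apart and 8.21% had them apart with the higher level in depleted mice. The log2 fold change was 0.39 (standard error 0.18, adjusted p = 0.492 in limma, 95% interval from -0.019 to 0.79, unadjusted p = 0.0591). It ran from 0.25 without A5 to 0.48 without A6, and it was 0.80 with a pseudocount of 0.1 and 0.59 on TPM. The unadjusted p for Tlr13 in limma was 0.0297 without the filter, 0.0252 without the mean-variance trend, 0.0457 with array weights and 0.0315 without A6, with adjusted p-values from 0.342 to 0.493. In those fits 9.28%, 9.92%, 11.2% and 13.1% of all genes passed an unadjusted 0.05. The highest value, in A5, rested on about 20 fragments (95% Poisson interval from 0.851 to 2.14 FPKM), and the other 5 values on about 32 to 49. In A6, the lowest depleted mouse, the Poisson interval ran from 0.521 to 1.05 FPKM and covered the value of A1. The stretch of Tlr13 above holds GAGGAA, as do 28.3% of all windows.

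Tlr7 (chromosome X, 167304929 to 167330558), a receptor of single-stranded RNA, was at 0.97 FPKM (A1), 0.96 (A2) and 1.34 (A3) against 1.87 (A4), 0.52 (A5) and 1.13 (A6). The depleted group held both the highest and the lowest mouse. The log2 fold change was 0.013 (standard error 0.24, adjusted p = 0.988 in limma, 95% interval from -0.52 to 0.55), and its sign turned with the mouse left out, from -0.21 without A4 to 0.25 without A5. The low value in A5 rested on about 7 fragments. Tlr7 and Tlr13 are both X-linked. Xist, the RNA of the inactive X, was between 30.9 and 46.7 FPKM in 5 mice and at 4.74 FPKM in A3, and 4 Y-linked genes summed to 5.56 FPKM in A4 and to at most 0.16 FPKM in the other mice. A4 thus held both Xist and Y-linked RNA, while A3 had the lowest Xist with a Y-linked sum of 0. The part of this in the values of Tlr7, Tlr13 and the other genes was not tested.

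Tlr3 (chromosome 8, 45395665 to 45411080), the receptor of double-stranded RNA, was at 2.34 FPKM (A1), 2.82 (A2) and 2.16 (A3) against 4.33 (A4), 2.06 (A5) and 2.27 (A6). A4 alone was above the control range, while A5 was below it and A6 within it. For Tlr3 the log2 fold change was 0.13 (standard error 0.22, adjusted p = 0.855 in limma, 95% interval from -0.36 to 0.63), and it was -0.12 without A4. Tlr3 had the most fragments of the 10 genes in every mouse, from about 32 in A5 to about 264 in A4, where the Poisson interval ran from 3.82 to 4.89 FPKM. Tlr9 (chromosome 9, 106222598 to 106226883), the receptor of unmethylated DNA, was at 0.47 FPKM (A1), 0.21 (A2) and 0.31 (A3) against 0.31 (A4), 0.16 (A5) and 0.69 (A6). Its highest mouse was A6 and its lowest A5, on about 2 fragments, and A4 was close to the control mean (exact permutation p = 0.9). Tlr9 was the only gene of the 10 with its highest value in A6.

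The adaptor Myd88 (chromosome 9, 119335934 to 119341411) was at 2.63 FPKM (A1), 2.94 (A2) and 2.78 (A3) against 3.59 (A4), 3.66 (A5) and 2.42 (A6). A4 and A5 were above every control mouse and A6 was below every control mouse. The log2 fold change was 0.15 (standard error 0.15, adjusted p = 0.756 in limma, 95% interval from -0.20 to 0.50), and it ran from 0.067 without A5 to 0.29 without A6, where the groups of Myd88 and of Tlr2 no longer overlapped, as in 31.5% of genes tested that way. The unadjusted p for Myd88 in limma was then 0.0482 (adjusted p = 0.378). Of the 75-base windows of its transcript, 7.95% are also in the overlapping gene Acaa1a on the opposite strand. Whether the counting used the strand is not stated in the sources used here, so reads there may belong to either gene. The stretch of Myd88 above holds the letters GAAAGCGAAA before its RefSeq start, inside the gene span given here.

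**Figure D3:**
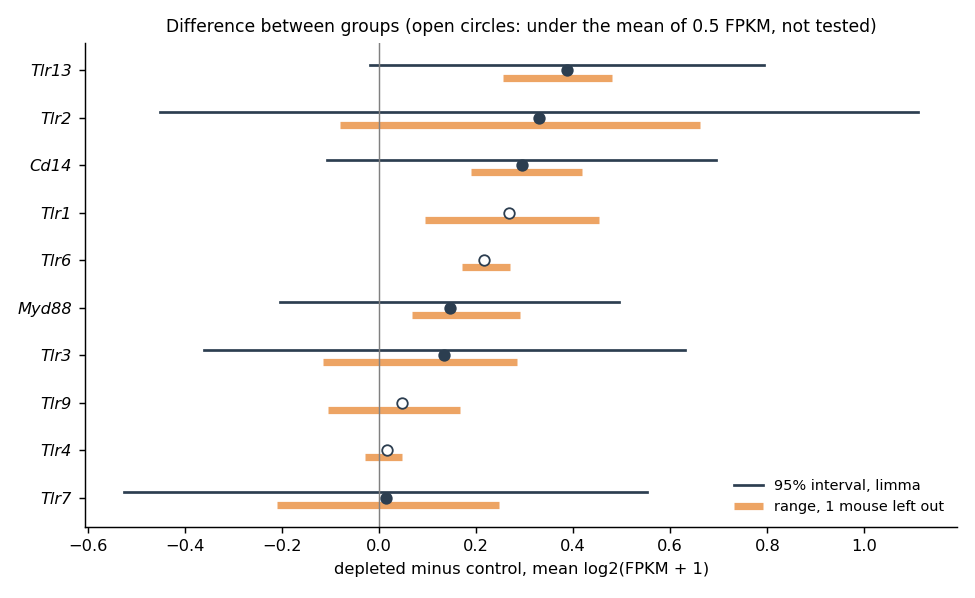
Difference of the mean log2(FPKM + 1), depleted minus control, for the 10 genes in order of size. Lines show the 95% interval in limma for the 6 genes tested, orange bars the range with 1 mouse left out, and open circles the 4 genes under the minimum mean. Every interval includes 0, and the orange bars of Tlr2, Tlr3, Tlr4, Tlr7 and Tlr9 cross 0.

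Set against the microglial RNA of the same mouse, Tlr13 still differed between the groups without overlap. The summed FPKM of 12 microglia genes ran from 115.4 to 140.4 in control and from 123.1 to 158.6 in depleted mice, with 8 of the 12 higher on average, 0 called in limma and none at 0. As a percent of that sum, Tlr13 was at 0.434% (A1), 0.338% (A2) and 0.447% (A3) against 0.555% (A4), 1.13% (A5) and 0.502% (A6). On this scale it was the only gene of the 10 whose groups were apart (log2 difference of the ratio 0.74, exact permutation p = 0.1, the smallest possible), and 1.93% of all genes tested were apart in this direction. Tlr6 overlapped on this scale, at 0.196% in A3 and 0.181% in A6 (exact permutation p = 0.2). Tlr3 and Myd88 had nearly the same ratio in both groups, with log2 differences of 0.0026 and 0.022 (exact permutation p = 0.9 for each). For Tlr4, Tlr7 and Tlr9 the log2 differences were -0.12, -0.22 and -0.11, and their signs turned with Csf1r alone as the divisor. With Csf1r alone as the divisor, the exact permutation p was 0.1, its floor, for Tlr13, Tlr6 and Cd14 and from 0.3 to 0.9 for the other 7 genes, while 6.24% of all genes tested were apart with the higher ratio in depleted mice.

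**Figure D4:**
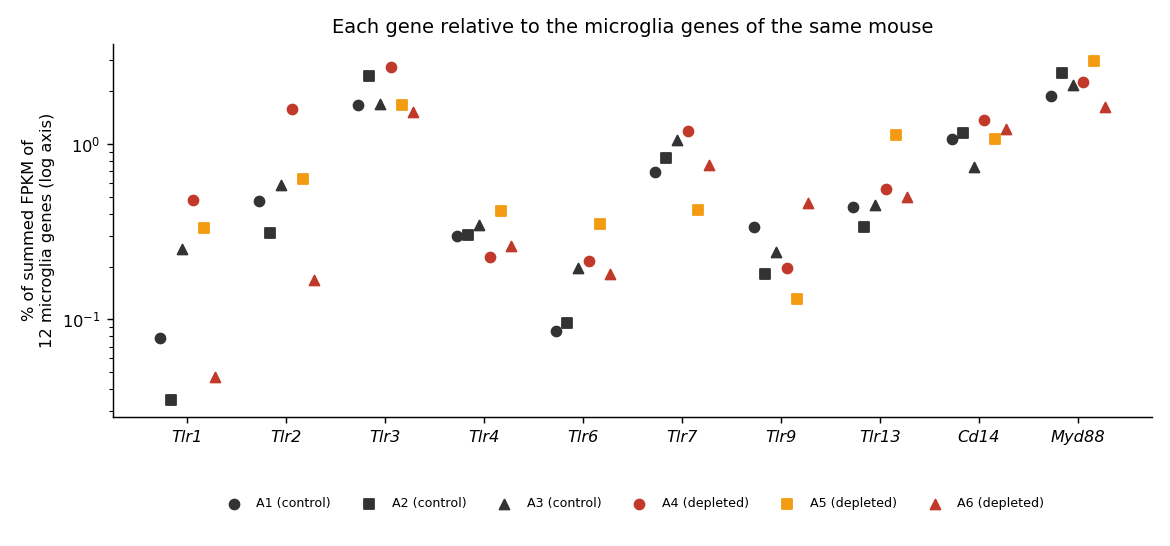
Each gene as a percent (log axis) of the summed FPKM of 12 microglia genes in the same mouse, with 1 symbol per mouse (black for control, red for A4 and A6, orange for A5). Tlr13 is the gene in which all 3 depleted mice lie above all 3 control mice, and Tlr2 is highest in A4, at 1.58%.

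Markers of other cells were measured in the same libraries. A list of 8 monocyte and border macrophage genes summed to between 4.65 and 5.54 FPKM in control mice, and to 9.77 (A4), 5.29 (A5) and 4.15 FPKM (A6), with 3 of the 5 genes tested higher on average and none of the 8 at 0 in every mouse. Ly6c2, counted among the 3, met the minimum mean only through the depleted mice (control mean 0.263 FPKM). Neutrophil genes, 5 of 6 of which were in the table, summed to between 1.57 and 1.99 FPKM in control mice and to 3.69 (A4), 1.60 (A5) and 2.80 FPKM (A6), with the 1 gene tested, Cxcr2, higher on average. Most of that sum was Cxcr2 (1.45 to 1.81 FPKM in control and 1.60 to 2.54 FPKM in depleted mice), while Retnlg was listed at 0 in 5 mice. Lymphocyte genes summed to at most 0.56 FPKM in 5 mice and to 1.13 FPKM in A4. A4 was thus the highest mouse for each of these lists, as it was for Tlr1, Tlr2, Tlr3, Tlr7 and Cd14, and for interferon-stimulated genes. The part of these cells and of that response in the values of A4 was not tested. Sums of 6 oligodendrocyte genes (2801 to 3055 FPKM in control, 2461 to 2507 FPKM in depleted mice) and of 5 choroid plexus genes (166.6 to 322.3 FPKM and 45.5 to 69.3 FPKM) were lower in every depleted mouse. Astrocyte sums (943.7 to 1052 FPKM and 939.5 to 1066 FPKM) and sums of endothelial and pericyte genes (26.3 to 29.1 FPKM and 27.7 to 30.5 FPKM) overlapped. Of the 6 endothelial and pericyte genes, 4 were higher on average and the rest lower. Within the astrocyte list Gfap was at 64.5 to 88.3 FPKM in control and 108.5 to 300.3 FPKM in depleted mice, without overlap, and the other 5 genes were lower on average. Their part in the values of the 10 genes was not tested either.

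The other Toll-like receptors of the mouse were also at low levels, and none reached the minimum mean. Tlr5, the flagellin receptor, was at 0.44 FPKM (A1), 0.09 (A2) and 0.20 (A3) against 0.09 (A4), 0.09 (A5) and 0.47 (A6), so that the groups overlapped. Tlr12, which binds protozoan profilin, was at 0.09 (A1), 0.09 (A2) and 0.12 FPKM (A3) against 0.18 (A4), 0.18 (A5) and 0.70 FPKM (A6), the value of A5 resting on about 2 fragments. The groups were apart (exact permutation p = 0.1, the smallest possible), as in 2.69% of the genes under the minimum mean. Tlr8 was at 0.02 (A1), 0.06 (A2) and 0.05 FPKM (A3) and at 0.16 FPKM in A4, and it was listed at 0 in A5 and A6, where 3 fragments would be 0.245 and 0.0775 FPKM. Tlr11 was listed at 0 in every mouse, where 3 fragments would be between 0.0456 and 0.262 FPKM.

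No other gene of the pathway was called either. Of 59 tested genes in 5 lists by role, limma called 0, while 8 (13.6%) passed an unadjusted 0.05, against 10.5% of all genes tested. The groups did not overlap in 11 (18.6%), against 17.6%. Among co-receptors and chaperones, 7 of 10 genes tested were higher on average (median log2 fold change 0.26, or 0.12 without A4), and 2 higher genes and 1 lower passed an unadjusted 0.05. Ly96 and Cd36, both counted among the 7, met the minimum mean only through the depleted mice (control means 0.413 and 0.457 FPKM). Cd180, a homologue of Tlr4 that restrains its signaling, was at 0.52 FPKM (A1), 0.19 (A2) and 0.91 (A3) against 1.95 (A4), 1.80 (A5) and 0.99 (A6) (log2 fold change 0.75, standard error 0.23, adjusted p = 0.378 in limma). All depleted mice were above all control mice, A6 by little. Cnpy3, a chaperone that Toll-like receptors need to fold, was at 31.9 FPKM (A1), 32.6 (A2) and 34.2 (A3) against 26.2 (A4), 31.0 (A5) and 24.8 (A6) (log2 fold change -0.26, standard error 0.096, adjusted p = 0.418 in limma). Here all depleted mice were below all control mice. Trem2, which is also among the microglia genes above, was the other gene of this list with an unadjusted p-value under 0.05.

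The 26 adaptors and kinases tested were nearly even, with 14 higher and 12 lower on average and a median log2 fold change of 0.012. Tirap, counted among the 14, met the minimum mean only through the depleted mice (control mean 0.483 FPKM). The highest was Pik3ap1, an adaptor that links the receptors to phosphoinositide 3-kinase, at 0.44 (standard error 0.25, adjusted p = 0.561 in limma), and the lowest was Ticam1, the adaptor of Tlr3, at -0.16 (standard error 0.14, adjusted p = 0.700 in limma). Of the 8 transcription factors, 5 were higher on average, with a median of 0.24, or 0.0057 without A4. Irf7, which drives interferon genes downstream of Tlr7 and Tlr9 and is itself interferon-stimulated, was at 1.82 FPKM (A1), 0.64 (A2) and 0.74 (A3) against 25.8 (A4), 4.14 (A5) and 3.75 (A6). Its groups were apart and it had the highest log2 fold change, 2.12 (standard error 0.60, adjusted p = 0.378 in limma) and 1.30 without A4. Irf3, which acts downstream of Tlr3 and Tlr4, had the lowest at -0.37 (standard error 0.17, adjusted p = 0.497 in limma). Irf7 is also among the 8 interferon-stimulated genes summed above.

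No early target gene of the receptors was called in limma. Of 15 such genes, 9 were tested, and Tnf, Il1b, Il6, Il12b, Cxcl1 and Cxcl2 were under the minimum mean. Of the 9, 7 were higher on average, with a median log2 fold change of 0.081 that was -0.11 without A4. Ccl4, a chemokine, was listed at 0 in A1 and A2 and at 0.25 FPKM in A3, and was at 3.60 (A4), 0.42 (A5) and 0.80 FPKM (A6). It met the minimum mean only through the depleted mice, so its difference is given as a description, and it is 1 of the 8 and 1 of the 11 genes counted above. Every depleted mouse was above A3, and A4 was far above the rest. Nfkbiz, an NF-kappa B co-factor, had the lowest log2 fold change at -0.23 (standard error 0.19, adjusted p = 0.691 in limma). Of the host molecules described as ligands, 2 of 6 tested were higher on average, with a median of -0.16, or -0.0053 without A4. Hmgb1, a nuclear protein released by dying cells, was between 95.6 and 102.7 FPKM in control and between 103.5 and 112.7 FPKM in depleted mice (log2 fold change 0.12, standard error 0.068, adjusted p = 0.574 in limma). S100a9, a neutrophil protein, had the lowest log2 fold change at -0.64 (standard error 0.26, adjusted p = 0.451 in limma), and its groups overlapped.

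**Figure D5:**
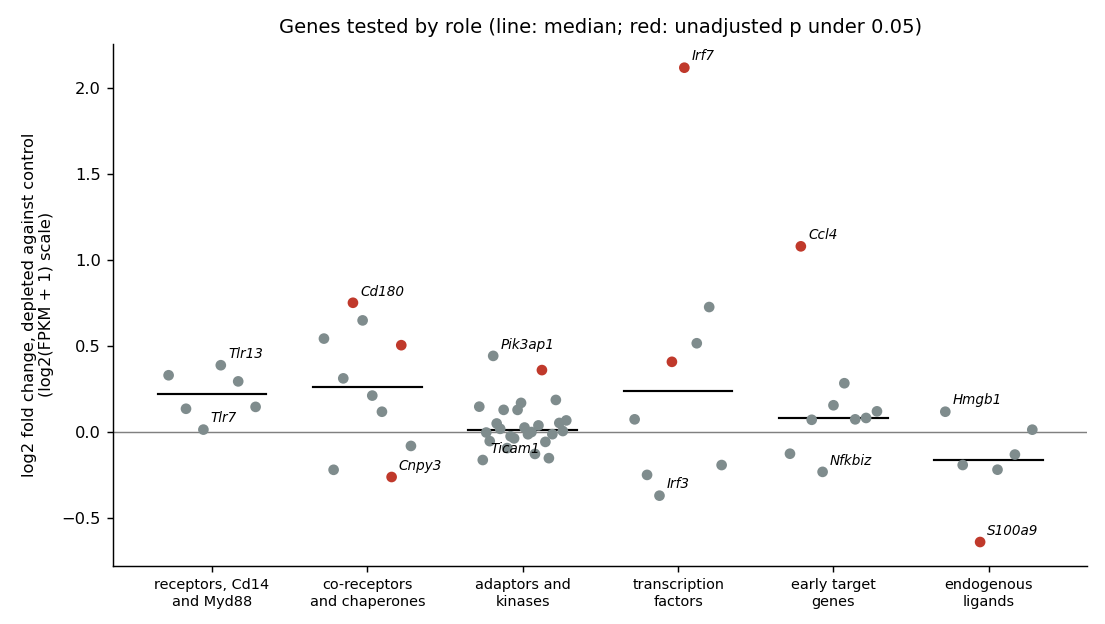
Log2 fold change (depleted against control, log2(FPKM + 1) scale) of each gene tested, by role, with the median of each group as a line and genes at an unadjusted p-value under 0.05 in red. The 6 genes tested among the receptors, Cd14 and Myd88 lie between 0.013 for Tlr7 and 0.39 for Tlr13 with none in red, and the adaptors and kinases are centered close to 0.

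The genes whose profile over the 6 mice was most like that of Tlr2, Cd14 and Myd88 were found by the root mean square difference of log2(FPKM + 1) after subtracting the control mean. For Tlr2 they were 2410006H16Rik, Trex1 and AW011738, at 0.097, 0.12 and 0.13. For Cd14 they were Cdkl4, Rbbp6 and Lig4, at 0.064, 0.069 and 0.069. For Myd88 they were Serhl, Iqgap1 and Slc26a4, at 0.028, 0.037 and 0.043. The 3 nearest genes of Tlr2 were, like it, higher in A4 than the control mean, by 0.86 to 1.16 on the log2 scale. They were also lower in A6, and both traits follow from how these genes were chosen. The likeness rests on 6 mice and was searched over 14385 genes.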

How the data were processed

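Cortical RNA of 3 depleted and 3 control mice was analysed, with groups and mice from the labels. The authors used poly(A)-selected TruSeq libraries with paired reads of 75 bp, TopHat for alignment and RSEM for known transcripts. The processing notes name mm9 and DESeq, and versions are not given in the sources used here. The deposited values are FPKM that the authors scaled with TMM and rounded to 2 decimals, and raw counts were not used here, so a count test was not run.

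All genes averaging 0.5 FPKM or more entered 1 limma fit with a mean-variance trend (limma 3.58.1, R 4.3.3) on log2(FPKM + 1). Genes with a Benjamini-Hochberg adjusted p below 0.1 were called. The model held the group alone, since the labels give no batch or litter. The fit was tested on simulated data. For single genes, exact permutation over the mice (two-sided) gave a p that for 3 against 3 cannot be below 0.1. The limma p-values set the group difference against the spread between these mice, with each variance drawn toward the trend over all genes tested. The permutation p is the share of splits of the mice with a difference at least as large. For ratios to 12 microglia genes, 0.01 was added to the FPKM. The 10 genes, the lists and the rule for named genes (all 10, the other receptors, the highest and lowest log2 fold change of each list, and the 3 nearest profiles) were chosen with earlier results of these data known. Trem2, Xist, Gfap, Cxcr2, Retnlg, Ly96, Cd36, Tirap, Rsad2 and Ly6c2 fall outside the rule and were named after their values were seen.

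Depth was estimated from 1813 genes with 1 annotated transcript of 400 to 1500 bases, as the spacing of low values (67.2% to 79.1% of them within 0.15 of a whole number of fragments). At 2 times the depth of A5 the deepest library would be 2.88 times the shallowest. Fragments per gene use the length of the principal transcript and are approximate, and 95% intervals cover counting error only. Positions and lengths are from GENCODE M21 (GRCm38), matched by symbol, not from mm9. Scripts ran in Python 3.11.15 with scipy 1.17.1, and figures were drawn with matplotlib 3.10.9. The fit was repeated without the filter, with a cutoff of 1 FPKM, with 0.1 as pseudocount, on TPM, with median-of-ratios and quantile scaling, without the trend, with robust eBayes, with array weights and without each mouse in turn.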

Additional observations from a re-analysis of the deposited data

How the results depend on the processing

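The 6 genes tested were called in none of the 14 or 15 alternatives that tested them, where the lowest adjusted p in limma was 0.336, and Tlr1, Tlr4, Tlr6 and Tlr9 were tested only without the filter and not called. The number of genes tested whose groups did not overlap was 2 with no filter, which adds Tlr6, and 0 with a minimum mean of 1 FPKM, which drops Tlr13, and ran from 1 to 3 with 1 mouse left out (Tlr13 with Cd14 without A5, and with Tlr2 and Myd88 without A6). The median log2 fold change of the genes tested ran from -0.0014 without A4 to 0.28 with 1 mouse left out. The log2 fold change of Tlr7 was -0.040 with a pseudocount of 0.1, -0.0095 after rescaling to TPM and -0.12 with array weights. With 1 mouse left out the values ran from -0.21 to 0.25 for Tlr7, from -0.081 to 0.66 for Tlr2, from -0.12 to 0.28 for Tlr3, from -0.029 to 0.047 for Tlr4 and from -0.10 to 0.17 for Tlr9. The cause was not tested. Relative to Csf1r alone the log2 differences of Tlr4, Tlr7 and Tlr9 were 0.13, 0.027 and 0.14. Relative to the microglia genes with 1 mouse left out they ran from -0.42 to 1.17 for Tlr2, from -0.25 to 0.18 for Tlr3, from -0.37 to 0.058 for Tlr4, from -0.57 to 0.16 for Tlr7, from -0.60 to 0.28 for Tlr9 and from -0.19 to 0.25 for Myd88. Of the medians of the lists by role, recomputed without A4 and without A5 after the data were seen, that of the early target genes turned, from -0.11 without A4 to 0.24 without A5. No paired analysis was possible because the labels give the groups no shared replicate numbers. The depth of A5 limits its values: 7 of 10 rest on fewer than 10 fragments, which would be 2 of 10 at 2 times the depth.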
